A study of Mus musculus with 9 samples.

Results

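Voltage-gated calcium and sodium channels turn a change in membrane voltage into an ion current. A calcium channel is built from a pore-forming subunit, a cytosolic beta subunit that carries the pore to the membrane, and an extracellular alpha2delta subunit that raises its number at the surface. The gamma subunits were named for the muscle calcium channel, but most brain members, the transmembrane AMPA receptor regulatory proteins (TARPs), carry AMPA-type glutamate receptors to synapses. A sodium channel pairs a pore-forming subunit, which carries the upstroke of the action potential, with small membrane-spanning beta subunits. In ischemic stroke, loss of energy depolarises neurons, and calcium entering through such channels and through glutamate receptors adds to the injury.

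The genes were every protein-coding row of the deposited table with a symbol that begins with Cacna, Cacnb or Cacng, or that is an Scn number followed by a or b. That rule gave 40 of 55385 rows, 26 for calcium channel subunits and 14 for sodium channel subunits. It used no measured value, but the genes were chosen with earlier results of these data known. The rule also takes in genes best known for roles other than voltage gating: the TARPs, and Scn7a, which encodes a sodium-sensing channel.

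All 9 libraries came from brain hemispheres of male C57BL/6 mice 8 to 10 weeks old, with 3 libraries per group. Sham mice had the neck surgery without closure of the artery. The abbreviation tMCAO stands for transient middle cerebral artery occlusion, a model of ischemic stroke: mice of that group had the right artery blocked with a coated filament, which was pulled back after 90 min to let blood return. Mice of the celastrol group were occluded in this way too and were given celastrol, a triterpenoid from the thunder god vine, by intraperitoneal injection at 4.5 mg/kg as reperfusion began. The sources used here do not give the time to sampling, how many animals a library holds or any vehicle for the other groups. P-values therefore measure only how these libraries spread. In RNA from a whole hemisphere, fewer cells of a type and less RNA per cell cannot be told apart.

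Libraries held 60392960 to 75158625 estimated counts. Markers of neurons and glia were detected in all 9 libraries, and the summed level of choroid plexus markers ranged from 7.32 to 1785 CPM (counts scaled to a common library total, with TMM factors). Markers of striatal projection neurons summed to 189 to 1581 CPM and those of the thalamus to 118 to 886 CPM, so the sums of regional markers differed several-fold between libraries. Neutrophil markers summed to 0.389 to 1.84 CPM in sham and 6.40 to 28.5 CPM in the 6 occluded libraries.

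Of the 40 genes, 31 reached an FPKM (fragments per unit of transcript length and of library size) of at least 0.5 in at least 3 libraries and were tested among 16982 genes. RefSeq promoter windows, 250 bases before to 50 after a gene's start on GRCm38.p6, were found for 30 of the 40 genes, as 41 windows. The text shows 2 of them, chosen after the values were seen, since the tMCAO libraries of Cacng5 and Cacna2d1 overlapped neither sham nor celastrol. Capitals mark GC boxes (GGGCGG, read as CCGCCC on the other strand) and the right-hand portion of the RE1 element (GGACAG, or CTGTCC), which neuronal genes often carry for the repressor REST. The Cacng5 window, 1 of 2, is chr11:107915006-107915305 on the minus strand, and that of Cacna2d1 is chr5:15934441-15934740 on the plus strand.
Cacng5: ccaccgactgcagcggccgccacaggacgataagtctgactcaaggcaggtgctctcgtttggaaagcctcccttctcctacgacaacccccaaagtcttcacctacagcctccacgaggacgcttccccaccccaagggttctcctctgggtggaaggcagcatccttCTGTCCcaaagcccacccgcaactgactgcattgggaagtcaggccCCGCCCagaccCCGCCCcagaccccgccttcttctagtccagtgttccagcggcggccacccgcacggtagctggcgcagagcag
Cacna2d1: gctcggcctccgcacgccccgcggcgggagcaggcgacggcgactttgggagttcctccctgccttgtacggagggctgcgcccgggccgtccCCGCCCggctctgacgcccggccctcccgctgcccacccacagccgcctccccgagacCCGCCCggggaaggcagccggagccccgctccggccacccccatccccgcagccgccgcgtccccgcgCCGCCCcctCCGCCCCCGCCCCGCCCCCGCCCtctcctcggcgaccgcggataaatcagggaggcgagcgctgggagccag
The Cacna2d1 window held 7 GC boxes and that of Cacng5 held 2 GC boxes with 1 RE1 right-hand portion. Over both strands and with overlaps counted, a GC box lay in 16 of the 41 windows (39.0%) and in 35.7% of all 32851 windows of this length. The RE1 right-hand portion lay in 7 of the 41 windows (17.1%) against 22.2% of all. The CRE (TGACGTCA), the E box (CACGTG) and the RE1 left-hand portion (CAGCACC) lay in 0 of the 41 windows, against 1.79%, 7.15% and 7.14% of all. These matches describe the letters in the windows and say nothing about binding.

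Levels per transcript length differed widely among the tested genes. The sodium channel beta gene Scn2b had a mean of 51.0 FPKM over the 9 libraries and Cacng7, a TARP, 50.3 FPKM, while Scn7a had 0.623 FPKM. The most abundant pore-forming subunits were those of sodium channels, Scn8a with 18.0 FPKM, Scn2a with 17.4 FPKM and Scn1a with 11.9 FPKM. The N-type calcium pore Cacna1b (11.5 FPKM), the P/Q-type pore Cacna1a (10.9 FPKM) and the T-type pore Cacna1i (9.52 FPKM) came next. The ranges of neighbouring genes named here overlapped.

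**Figure D1:**
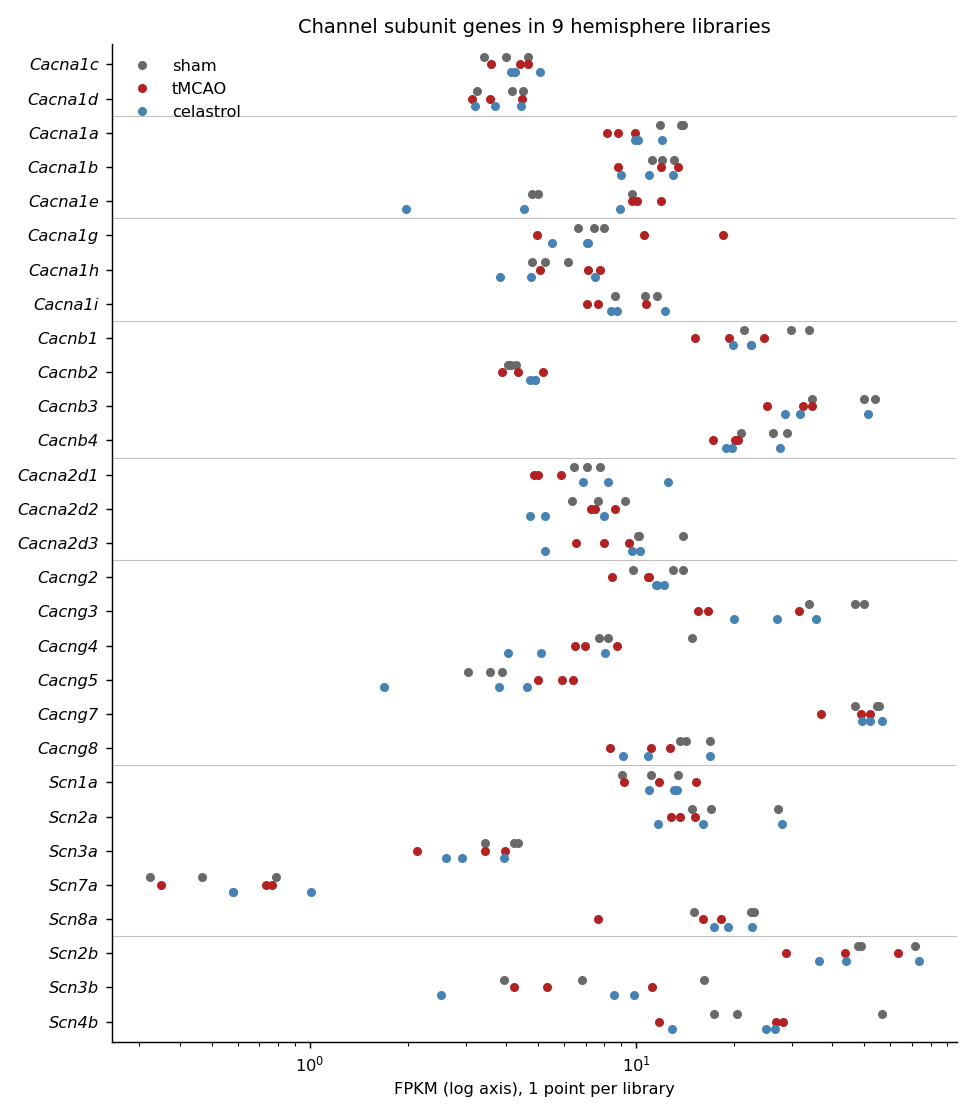
FPKM of 29 tested channel genes on a log axis, 1 point per library, grouped by subunit family. Of the genes plotted, Scn7a lies lowest, with a mean of 0.623 FPKM, and Scn2b has the highest mean, 51.0 FPKM.

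Among the calcium pores, the L-type genes Cacna1c (4.25 FPKM) and Cacna1d (3.83 FPKM) lay below the other types, with the R-type gene Cacna1e at 7.41 FPKM and the T-type genes Cacna1g and Cacna1h at 8.42 and 5.81 FPKM. Cacnb3, at 38.1 FPKM, led the calcium beta subunits, ahead of Cacnb1 (23.2 FPKM), Cacnb4 (22.3 FPKM) and Cacnb2 (4.49 FPKM). The alpha2delta genes Cacna2d3, Cacna2d1 and Cacna2d2 had 9.29, 7.19 and 7.18 FPKM. Behind Cacng7, the TARPs stood at 30.8 FPKM for Cacng3, 12.6 for Cacng8, 11.4 for Cacng2, 7.80 for Cacng4 and 4.22 for Cacng5. The sodium pore Scn3a, best known from embryonic brain, had 3.45 FPKM, and the beta subunits Scn4b and Scn3b had 25.1 and 7.63 FPKM.

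The 9 untested genes were mostly those known from other tissues. The skeletal muscle pores Cacna1s and Scn4a had 28 to 75 and 0 to 8 counts per library, and the muscle gamma subunits Cacng1 and Cacng6 had 0 to 8 and 21 to 102. Cacng1 was counted in sham replicate 1 (8 counts) and tMCAO replicate 3 (4 counts) and stood at 0 in the other 7 libraries, where a count of 0 allows up to 3 counts by counting error alone. The retinal genes Cacna1f and Cacna2d4 had 12 to 64 and 141 to 344 counts. Cacna2d4 overlaps Lrtm2 (72.0 CPM) on the other strand, and since the sources used here do not say whether counting used strand, its counts are uncertain. Of the sodium pores of sensory neurons, Scn9a had 134 to 881 counts and Scn11a 0 to 57. Scn10a had 21 to 176 counts in 8 libraries and 758 in celastrol replicate 2, or 11.96 CPM there against 0.355 to 2.44 CPM elsewhere. Among tested genes, Cacna1c overlaps Dcp1b (17.0 CPM) and Cacna1d overlaps Dcp1a (32.3 CPM), which leaves their counts uncertain in the same way.

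Occlusion against sham asked what ischemia and reperfusion did to the channel genes. In tMCAO libraries 24 of the 31 tested genes had a negative log2 fold change, with a median of -0.37, while 8336 of all 16982 genes did (49.1%), with a median of 0.01. The lowest fold changes were those of the TARP Cacng3, the beta subunit Cacnb3 and the P/Q-type pore Cacna1a. None of the 31 passed an adjusted p of 0.05 by edgeR, as was so for all genes (0% of 16982 called). At an unadjusted p under 0.05, 8 lay lower and 0 higher, where 6.36% of all genes lay lower and 8.56% higher. DESeq2 called 2 of the 31, Cacna1a and Cacng3, among 836 genes it called (4.92%), and limma, on voom weights or on log2 FPKM, called 0 (0% to 0.0118% of all genes). Groups did not overlap for 8 genes that were lower and 1 that was higher, against 11.1% and 12.4% of all genes. Without sham replicate 3, 2 of the 31 lay lower at an unadjusted p under 0.05 and the median was -0.20, while leaving out any other single library left 6 to 8.

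Pan-neuronal markers lay lower as well. Of the 12 markers, 11 had a negative log2 fold change after tMCAO, with a median of -0.28, and none was at 0 in any group. Their summed level was 9464 ± 463 CPM in sham (range 9075 to 9976), 7895 ± 567 CPM in tMCAO (7251 to 8322) and 8576 ± 1967 CPM with celastrol (7116 to 10813; SD, n = 3 each). The 31 channel genes summed to 4215 ± 392, 3388 ± 220 and 3704 ± 847 CPM in the same order. As a share of the marker sum they came to 44.6%, 42.9% and 43.2%, lying between 41.9% and 43.8% in 8 libraries and at 49.1% in sham replicate 3. A few synaptic genes weigh most in that sum. In sham replicate 1, Snap25 had 2574, Syt1 1824 and Syp 1421 of its 9075 CPM. When libraries were scaled by the pan-neuronal markers, a choice made after seeing the data, the median of all genes shifted to 0.27. The median of the 31 was then -0.12, with 18 of them negative, against 24 under the usual scaling, and 20.2% of all genes were negative. At an unadjusted p under 0.05, 2 of the 31 lay lower and 1 higher under that scaling, against 1.07% and 13.9% of all genes. Cacna1a and Cacng3 were those lower and Cacng5 the higher. Among the other genes lower with no overlap, the scaled log2 fold change was -0.41 for Cacnb3, -0.34 for Cacna2d3 and -0.33 for Scn2a. It was -0.30 for Cacng8, -0.26 for Cacna2d1 and -0.24 for Cacnb4. As a share of the marker sum, sham and tMCAO libraries overlapped for these genes and for Cacng3, and did not for Cacna1a. The part of neuron number in these values was not tested.

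**Figure D2:**
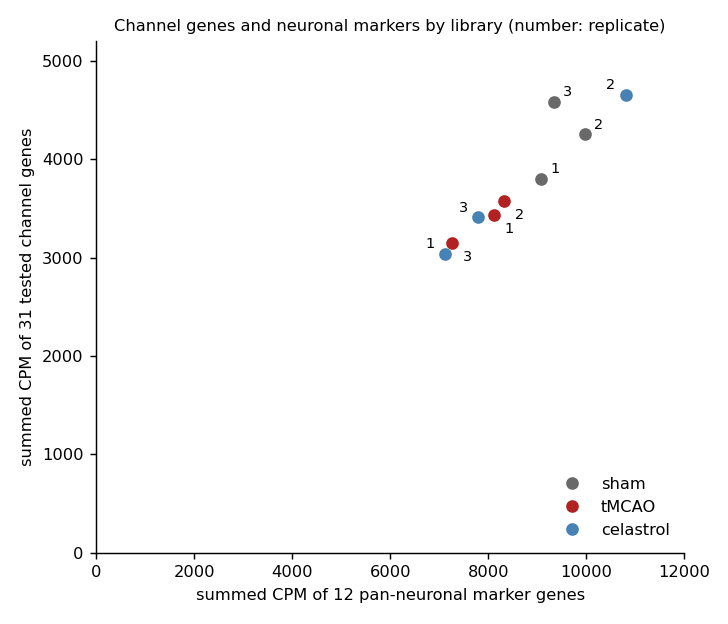
Summed CPM of the 31 tested channel genes (vertical) against summed CPM of 12 pan-neuronal marker genes (horizontal), 1 point per library, numbered by replicate. The libraries line up from 3039 CPM in celastrol replicate 1 to 4658 CPM in celastrol replicate 2, and sham replicate 3 lies above the others at its marker level.

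Among the pores, Cacna1a, the P/Q-type channel that drives transmitter release at most central synapses (chromosome 8, 84338639 to 84640246 on mm10), stood at 167, 205 and 199.5 CPM in sham and at 135, 121 and 108 CPM in tMCAO. The 3 tMCAO libraries all lay below the sham libraries. Celastrol libraries had 132, 178 and 139.8 CPM, with replicate 2 inside the sham range, replicate 1 inside the tMCAO range and replicate 3 between them. The log2 fold change was -0.65 ± 0.15 (SE) after tMCAO, with an edgeR adjusted p of 0.143. DESeq2 gave an adjusted p of 0.00526, and over all alternatives it ran from 0.00526 to 0.455. Scaled by the pan-neuronal markers, the log2 fold change was -0.39.

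The N-type pore Cacna1b, with 127, 155 and 141 CPM in sham, 148, 97.8 and 128 in tMCAO and 96.8, 155 and 122 with celastrol, had groups that overlapped. Its log2 fold change after tMCAO was -0.18 ± 0.20 (adjusted p = 0.716, edgeR), and 0.094 under pan-neuronal scaling. Cacna1e, the R-type pore, lay the other way, with 281, 151 and 143 CPM in sham, 333, 282 and 262 in tMCAO and 53.6, 269 and 129 with celastrol. Sham replicate 1 and celastrol replicate 2 reached the tMCAO range, and celastrol replicate 1 lay lowest.
As a share of the summed FPKM of these 3 pores, Cacna1a took 36.1%, 43.5% and 44.9% in the sham libraries, 28.0%, 31.8% and 27.3% in tMCAO and 47.4%, 35.5% and 39.5% with celastrol. The share of Cacna1e was 29.8%, 15.7% and 15.7% in sham, 33.8%, 36.3% and 32.5% in tMCAO and 9.42%, 26.3% and 17.8% with celastrol. For both genes the tMCAO shares did not overlap those of either other group, and the exact two-sided permutation p of each difference was 0.1, the smallest that 3 against 3 libraries allow. The summed FPKM of the 3 pores was 31.7 ± 1.12 in sham, 30.9 ± 3.94 in tMCAO and 26.8 ± 6.60 with celastrol (SD, n = 3).

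**Figure D3:**
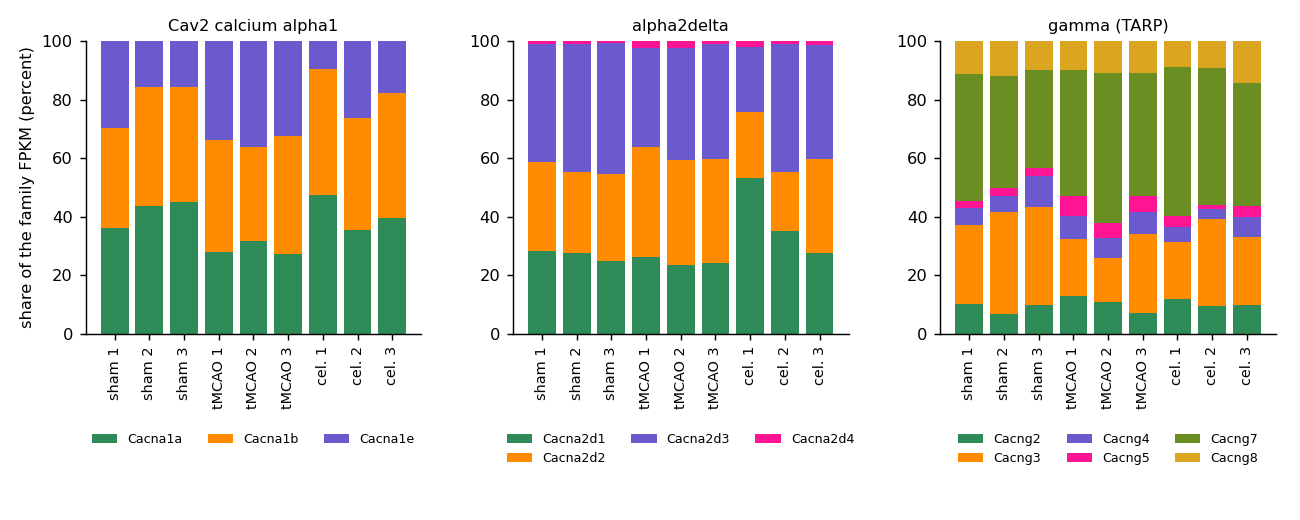
Share of each subunit in the summed FPKM of its family, in percent, for 3 calcium pores, the alpha2delta subunits and the TARPs, 1 bar per library. In the first panel the tMCAO libraries have the smallest Cacna1a shares (27.3% to 31.8%) and the largest Cacna1e shares (32.5% to 36.3%).

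The L-type gene Cacna1c, which carries most L-type current in neurons and heart, had 99.5, 122 and 88.8 CPM in sham, 113, 87.7 and 103 in tMCAO and 97.4, 111 and 125 with celastrol. The groups overlapped, with a log2 fold change of -0.032 ± 0.16 after tMCAO (adjusted p = 0.944, edgeR) that was 0.24 under pan-neuronal scaling. Cacna1d, the other brain L-type pore, had means of 71.1 ± 12.9, 62.2 ± 11.5 and 64.7 ± 7.27 CPM in sham, tMCAO and celastrol (SD, n = 3).
Of the low-voltage T-type pores, Cacna1i stood at 97.5, 125 and 135 CPM in sham, 117, 77.7 and 80.7 in tMCAO and 89.4, 145 and 96.8 with celastrol, with groups that overlapped and a log2 fold change of -0.37 ± 0.23 after tMCAO (adjusted p = 0.482, edgeR). Cacna1g, prominent in thalamic relay neurons, had 207, 119.6 and 53.9 CPM in tMCAO against 77.0, 90.1 and 95.6 in sham and 77.5, 67.3 and 81.4 with celastrol, so tMCAO replicates held both its highest and its lowest value. The 8 thalamic markers were highest in tMCAO replicate 2 (886 CPM) and summed to 209 and 167 CPM in tMCAO replicates 1 and 3. Their part in the Cacna1g values was not tested. Cacna1h had means of 62.2 ± 8.96, 71.4 ± 16.3 and 59.0 ± 20.2 CPM in the 3 groups (SD, n = 3).

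All calcium beta genes but Cacnb2 lay lower after tMCAO on average. Cacnb3 had 159, 259 and 237 CPM in sham and 112, 145 and 149 in tMCAO, with no overlap, and 137, 247 and 129 with celastrol. This was a log2 fold change of -0.69 ± 0.28 (adjusted p = 0.307, edgeR). Cacnb4, the partner of P/Q-type pores whose loss gives the lethargic mouse, had 269.6, 225 and 307 CPM in sham and 204, 201 and 165 in tMCAO, again with no overlap.
Celastrol libraries had 183, 296 and 198 CPM of Cacnb4, with replicate 2 in the sham range. Its log2 fold change after tMCAO was -0.49 ± 0.20 (adjusted p = 0.310, edgeR). Cacnb1 had 111, 161 and 181 CPM in sham, 96.5, 76.5 and 119.9 in tMCAO and 97.1, 122 and 114 with celastrol, so sham replicate 1 lay within the tMCAO range. This gave a log2 fold change of -0.63 ± 0.21 (adjusted p = 0.246, edgeR).
The 4 beta genes summed to 104 ± 15.6 FPKM in sham, 74.2 ± 6.10 in tMCAO and 85.8 ± 17.9 with celastrol (SD, n = 3). Cacnb2, the main beta subunit of heart, held steadiest of the 29 genes reported singly, with a coefficient of variation within groups of 7.81% on average. It had 64.7, 65.5 and 63.5 CPM in sham, 57.0, 76.6 and 61.7 in tMCAO and 70.1, 77.8 and 70.2 with celastrol, where all 3 libraries lay above sham (log2 fold change 0.17 ± 0.12, adjusted p = 0.767, edgeR). Its share of the family FPKM was 3.47% to 4.93% in sham, 5.38% to 7.12% in tMCAO and 4.61% to 6.51% with celastrol, which overlapped sham. Its own mean was 64.6 CPM in sham and 65.1 CPM in tMCAO, while the other beta genes lay lower on average in tMCAO.

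**Figure D4:**
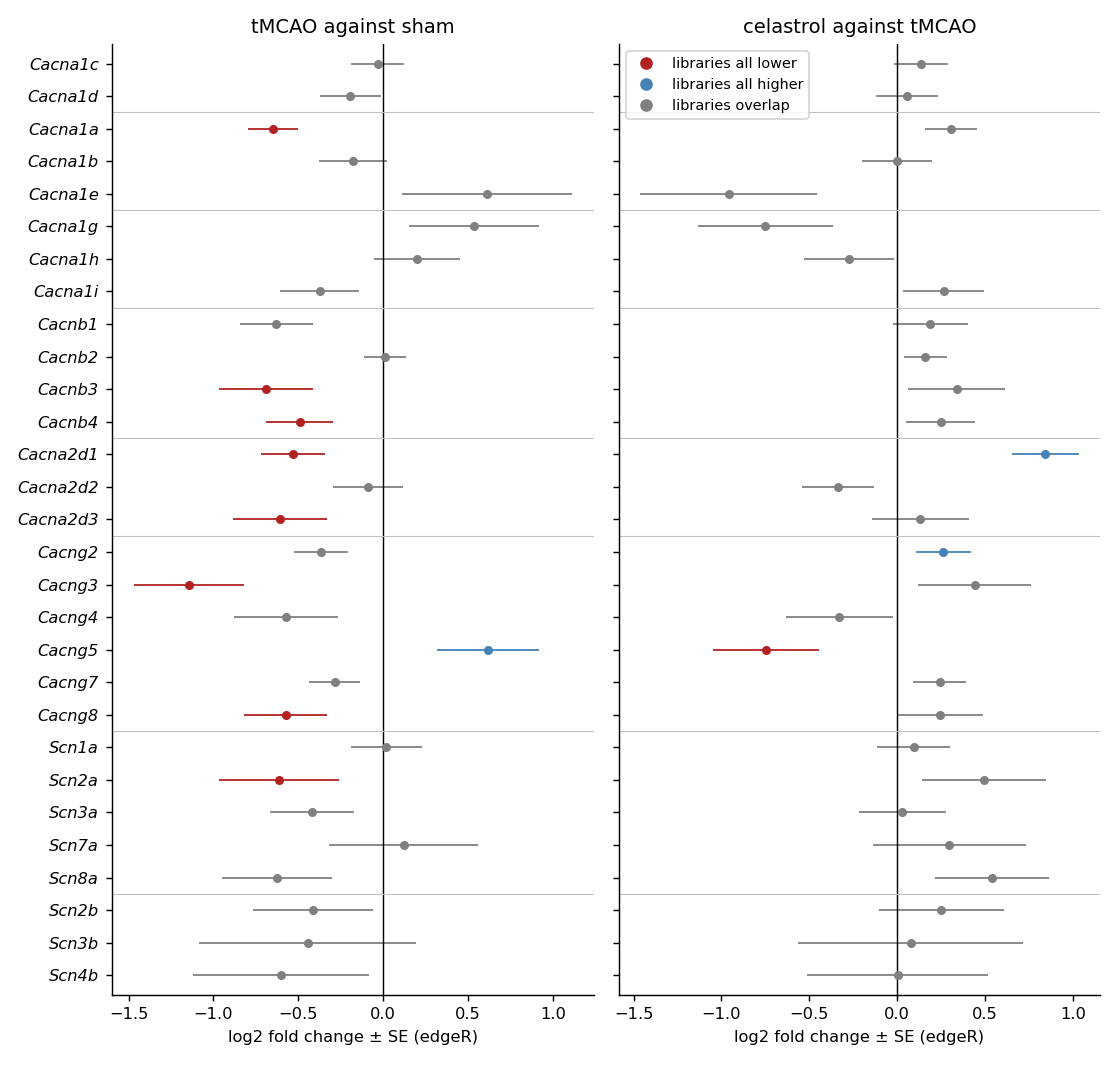
Log2 fold change with its SE (edgeR) of 29 tested channel genes on the left after tMCAO and on the right with celastrol relative to tMCAO, which share the tMCAO libraries. Red and blue mark genes whose libraries in 1 group all lie below or above those of the other, 8 and 1 on the left and 1 and 2 on the right, and no gene passes an adjusted p of 0.05.

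The alpha2delta gene Cacna2d1, whose protein binds gabapentin and pregabalin, had groups that did not overlap in both comparisons (chromosome 5, 15934691 to 16374511 on mm10). Sham libraries had 101, 95.8 and 114 CPM, tMCAO libraries 68.9, 67.4 and 78.5 and celastrol libraries 167, 122 and 96.1. The tMCAO libraries lay below all others, while celastrol replicates 1 and 2 lay above all sham libraries. The log2 fold change was -0.53 ± 0.19 after tMCAO (adjusted p = 0.260, edgeR) and 0.84 ± 0.19 for celastrol against tMCAO (adjusted p = 0.976).
The 5 choroid plexus markers summed highest in celastrol replicate 1 (1785 CPM), the library with the highest Cacna2d1. They stood at 7.32 CPM in celastrol replicate 2 and 439 CPM in celastrol replicate 3, and at 12.4 to 485 CPM in tMCAO. The library with 485 CPM, tMCAO replicate 2, had the lowest Cacna2d1 of all (67.4 CPM). Most of the sum in celastrol replicate 1 was Ttr (1662.5 CPM). The part of choroid plexus tissue in the Cacna2d1 values was not tested. Without celastrol replicate 1 the log2 fold change of Cacna2d1 against tMCAO was 0.60. As a share of alpha2delta FPKM, Cacna2d1 took 25.0% to 28.3% in sham, 23.4% to 26.0% in tMCAO and 27.7% to 53.3% with celastrol.
Cacna2d3, the most abundant alpha2delta gene per length, had 101, 106 and 143 CPM in sham, 63.4, 77.5 and 89.2 in tMCAO and 49.5, 108 and 95.2 with celastrol. The tMCAO libraries lay below sham with no overlap, with a log2 fold change of -0.61 ± 0.28 (adjusted p = 0.350, edgeR). Cacna2d2, strong in Purkinje cells, had means of 72.3 ± 13.5, 68.0 ± 5.13 and 53.8 ± 15.1 CPM in sham, tMCAO and celastrol (SD, n = 3).

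The TARP Cacng3 had the lowest fold change of the 31 genes after tMCAO (chromosome 7, 122670492 to 122769393 on mm10). It had 108, 166 and 154 CPM in sham, 51.3, 48.0 and 93.9 in tMCAO and 59.8, 118 and 84.5 with celastrol. The tMCAO libraries lay below all sham libraries, and celastrol replicate 2 lay inside the sham range. Its log2 fold change was -1.15 ± 0.33 (adjusted p = 0.195, edgeR), with 0.0230 by DESeq2 and 0.0230 to 0.499 over all alternatives.
Scaled by the pan-neuronal markers, its log2 fold change was -0.84. Markers of excitatory cortical neurons, where Cacng3 is strong, summed to 1167 to 2001 CPM in sham, 909 to 1327 CPM in tMCAO and 1028 to 2038 CPM with celastrol, and 5 of those 6 had a negative log2 fold change after tMCAO. Their part in the value of Cacng3 was not tested.

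Cacng8, the TARP of hippocampal AMPA receptors, had 38.1, 47.2 and 37.8 CPM in sham, 21.7, 29.1 and 32.0 in tMCAO and 23.0, 30.6 and 44.4 with celastrol. Sham and tMCAO did not overlap, with a log2 fold change of -0.57 ± 0.24 (adjusted p = 0.324, edgeR). Of 6 hippocampal markers 1 was negative after tMCAO, and they summed to 249 to 365 CPM in sham and to 340, 564 and 359.8 CPM in tMCAO. Their part in the Cacng8 values was not tested. Cacng2, or stargazin, the founding TARP, had 81.9, 64.3 and 90.7 CPM in sham, 67.0, 66.7 and 49.8 in tMCAO and 72.4, 76.1 and 71.7 with celastrol.
Sham replicate 2 reached the tMCAO range of Cacng2, while all celastrol libraries lay above tMCAO. Its log2 fold change was -0.37 ± 0.16 after tMCAO (adjusted p = 0.326, edgeR) and 0.26 ± 0.16 for celastrol against tMCAO (adjusted p = 0.976). Cacng7, of the type II TARPs, had 153, 162 and 135 CPM in sham, 99.4, 142 and 128 in tMCAO and 137, 166 and 135 with celastrol. Of its tMCAO libraries, replicate 2 lay in the sham range, and the log2 fold change was -0.29 ± 0.15 (adjusted p = 0.414, edgeR).

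Cacng5, the other type II TARP, ran against its family (chromosome 11, 107874605 to 107915055 on mm10). It had 13.4, 16.4 and 17.6 CPM in sham, 25.1, 21.4 and 26.4 in tMCAO and 15.7, 7.75 and 20.0 with celastrol. All tMCAO libraries lay above every other library. The log2 fold change was 0.62 ± 0.30 after tMCAO (adjusted p = 0.379, edgeR) and -0.74 ± 0.30 for celastrol against tMCAO (adjusted p = 0.976).
Without celastrol replicate 2, the latter was -0.44. Its share of TARP FPKM was 2.41% to 2.78% in sham, 4.92% to 6.94% in tMCAO and 1.40% to 3.95% with celastrol, while Cacng3 took 26.8% to 34.7%, 15.3% to 27.0% and 19.5% to 29.6%. The 6 TARPs summed to 137 ± 8.85 FPKM in sham, 101 ± 15.9 in tMCAO and 113 ± 9.82 with celastrol (SD, n = 3).

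**Figure D5:**
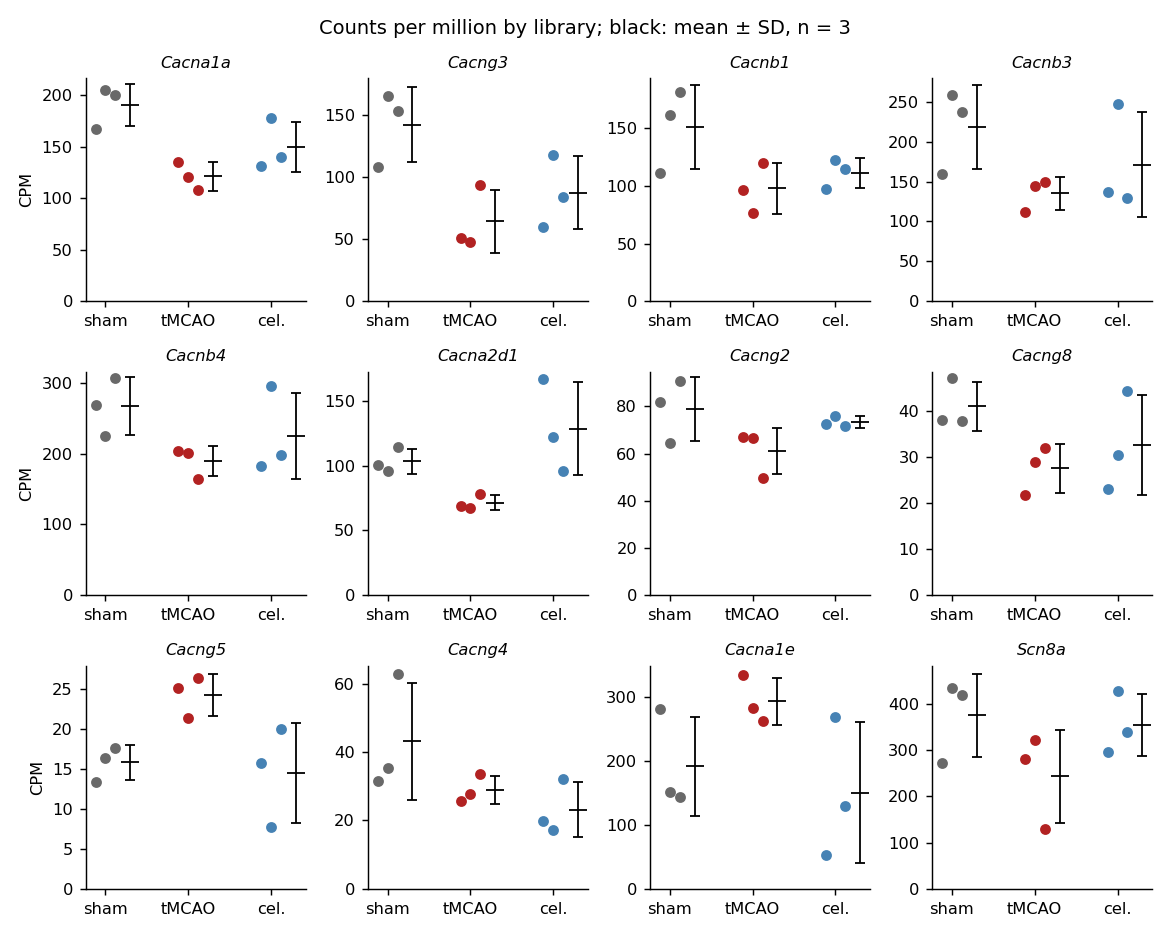
CPM of 12 channel genes by library, with the mean and SD of each group of 3 in black. Cacna1a, Cacng3, Cacnb3, Cacnb4, Cacna2d1 and Cacng8 lie lower in all tMCAO libraries than in any sham library, and Cacng5 lies higher.

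Of the sodium pores, Scn8a and Scn2a had the lowest fold changes after tMCAO, and neither passed the test. Scn8a, the main pore of nodes and of the axon initial segment, had 272, 434 and 419 CPM in sham, 279.9, 321 and 129.8 in tMCAO and 295, 428 and 338 with celastrol, with tMCAO replicate 3 lowest by far. Against sham the log2 fold change was -0.62 ± 0.32 (adjusted p = 0.408, edgeR), and -0.33 without tMCAO replicate 3. Scn2a, a pore of excitatory axons, had 218, 419.6 and 258 CPM in sham, 194, 183 and 209 in tMCAO and 162, 432 and 231 with celastrol.
The tMCAO libraries of Scn2a lay below all sham libraries (log2 fold change -0.61 ± 0.35, adjusted p = 0.453, edgeR). Without sham replicate 2 the log2 fold change was -0.28. The highest values, in sham replicate 2 and celastrol replicate 2, came in the libraries with the highest sums of excitatory cortical markers, 2001 and 2038 CPM. Of these sums, Slc17a7 alone made up 1473 and 1411 CPM. The part of excitatory neurons in the Scn2a values was not tested. Scn1a, the main pore of fast-spiking interneurons and mutated in Dravet syndrome, had means of 146 ± 25.3, 148 ± 39.8 and 158 ± 20.7 CPM in sham, tMCAO and celastrol (SD, n = 3).
Scn3a had means of 59.8 ± 6.75, 44.6 ± 13.9 and 45.5 ± 10.3 CPM in the same order. Scn7a lay at 4.57 ± 2.14, 4.96 ± 1.82 and 6.10 ± 2.41 CPM.

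Among the sodium beta genes, Scn2b had means of 308 ± 76.4, 231 ± 84.1 and 275 ± 120.2 CPM in sham, tMCAO and celastrol (SD, n = 3). Scn4b, strong in striatal projection neurons, had 98.4, 121 and 334 CPM in sham, 65.0, 149 and 151 in tMCAO and 135, 159 and 72.3 with celastrol, with sham replicate 3 apart from the rest.
Sham replicate 3 also had the highest sum of the 9 striatal markers (1581 CPM, against 904 CPM or less elsewhere), and the part of striatal tissue in the Scn4b values was not tested. Scn3b had 101, 25.7 and 44.2 CPM in sham, 32.4, 68.2 and 24.8 in tMCAO and 14.9, 64.7 and 52.6 with celastrol. Its groups overlapped fully, with a coefficient of variation within groups of 61.0% on average.

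Celastrol against tMCAO asked what the drug did once the artery had reopened. The median log2 fold change of the 31 genes was 0.14, with 8 negative, while 50.7% of all genes were negative. None of the 31 passed an adjusted p of 0.05 by edgeR, DESeq2 or limma, where edgeR and limma called 0% of all genes and DESeq2 0.112%. At an unadjusted p under 0.05, Cacna2d1 lay higher and Cacng5 lower, where 2.25% of all genes lay higher and 1.86% lower. Groups did not overlap for 2 genes that were higher, Cacna2d1 and Cacng2, and 1 that was lower, Cacng5, against 3.73% and 4.13% of all genes. This comparison shares the tMCAO libraries with the first. Without celastrol replicate 2, in which the channel genes summed highest, the median was 0.0046 with 15 negative, and without celastrol replicate 1 it was 0.27. Under pan-neuronal scaling it was 0.049 with 13 negative, against 64.7% of all genes.
For the most abundant gene of 7 subunit families, the log2 fold change against tMCAO was 0.54 ± 0.32 for Scn8a, 0.34 ± 0.28 for Cacnb3, 0.26 ± 0.23 for Cacna1i and 0.24 ± 0.15 for Cacng7. It was 0.14 ± 0.16 for Cacna1c, 0.13 ± 0.28 for Cacna2d3 and -0.0014 ± 0.20 for Cacna1b. Adjusted p by edgeR was at least 0.976 for all 7. Leaving out tMCAO replicate 3 gave 0.24 for Scn8a, and leaving out celastrol replicate 2 gave -0.022 for Cacnb3 and 0.019 for Cacna1i. The largest negative value was that of Cacna1e, -0.96 ± 0.50, whose celastrol libraries spread from 53.6 to 269 CPM.

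Celastrol against sham gave 25 of 31 negative with a median log2 fold change of -0.16, beside 49.6% of all genes. EdgeR called none of the 31 (0.00589% of all genes), nor did DESeq2 (2.24%) or limma (0% to 0.0177%). Without celastrol replicate 1 the median was -0.034 with 17 negative, and under pan-neuronal scaling it was -0.020 with 17 negative, against 23.7% of all genes. At an unadjusted p under 0.05, Cacna1a and Cacng4 lay lower and 0 higher, against 2.81% and 5.69% of all genes. Groups did not overlap for 0 genes that were lower and 1 that was higher (Cacnb2), against 5.54% and 7.89%. Without sham replicate 3 or without celastrol replicate 1, 0 lay lower at an unadjusted p under 0.05, 4 did without sham replicate 1 and 6 without celastrol replicate 2.
Cacng4, a TARP also found in glia, had 31.6, 35.2 and 62.7 CPM in sham, 25.7, 27.8 and 33.6 in tMCAO and 19.8, 17.3 and 32.2 with celastrol, where replicate 3 lay between sham replicates 1 and 2. Against sham this was a log2 fold change of -0.90 ± 0.31 (adjusted p = 0.444, edgeR), and -0.53 without sham replicate 3, its highest library. That of Cacna1a was -0.35 ± 0.15 (adjusted p = 0.565). For the most abundant gene of those families it was 0.10 ± 0.16 for Cacna1c, -0.18 ± 0.20 for Cacna1b, -0.11 ± 0.23 for Cacna1i and -0.35 ± 0.28 for Cacnb3. It was -0.48 ± 0.28 for Cacna2d3, -0.042 ± 0.15 for Cacng7 and -0.085 ± 0.32 for Scn8a.

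Taking all 6 occluded libraries against sham, which reuses both earlier contrasts, 23 of 31 genes were negative with a median of -0.24, beside 49.7% of all genes. Without sham replicate 3 the median was -0.13, and under pan-neuronal scaling it was -0.027 with 17 negative, against 20.6% of all genes. EdgeR called none (0.0118% of all genes), limma 0 (0% to 0.171%), and DESeq2 the same pair, Cacna1a and Cacng3, among 797 genes (4.69%). At an unadjusted p under 0.05, 5 lay lower (Cacna1a, Cacnb1, Cacna2d3, Cacng3 and Cacng4) and 0 higher, against 5.39% and 8.00% of all genes. No gene had groups that did not overlap, against 2.53% lower and 4.20% higher. Without sham replicate 3, 2 lay lower, and without celastrol replicate 2 or 3, 8 did.
The log2 fold change was -0.50 ± 0.13 for Cacna1a, -0.92 ± 0.27 for Cacng3 and -0.74 ± 0.26 for Cacng4, which without sham replicate 3 was -0.37. It was -0.54 ± 0.18 for Cacnb1 and -0.54 ± 0.24 for Cacna2d3. EdgeR adjusted p was 0.174, 0.215, 0.280, 0.262 and 0.369 in that order. Of the most abundant genes, Cacnb3 had -0.52 ± 0.23, Scn8a -0.35 ± 0.28, Cacna1i -0.24 ± 0.20 and Cacna1b -0.18 ± 0.17. Cacng7 had -0.16 ± 0.13 and Cacna1c 0.036 ± 0.13.

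Of 45 gene symbols listed as partners of these channels, 44 had a row and 43 were tested. They covered ankyrins and other axon initial segment proteins, and inhibitors and adaptors of calcium pores. Others were active zone proteins, the sodium leak channel, and the pumps and exchangers that clear calcium and sodium. EdgeR called 0 in any comparison. After tMCAO 37 of the 43 had a negative log2 fold change with a median of -0.31, beside 49.1% of all genes. At an unadjusted p under 0.05, 9 lay lower and 0 higher, against 6.36% and 8.56% of all genes. Of the active zone genes all 6 were negative, among them Unc13a, which primes synaptic vesicles. It had 319.8, 511 and 502 CPM in sham, 229, 181 and 244 in tMCAO and 186, 396 and 254 with celastrol, so that sham lay above every tMCAO library. Its log2 fold change was -1.03 ± 0.29 (adjusted p = 0.190, edgeR).
The spectrin Sptbn4, which anchors sodium channels at the axon initial segment, had 204, 204 and 218 CPM in sham, 146, 183 and 170.1 in tMCAO and 188, 245 and 205 with celastrol. It was the 1 partner at an unadjusted p under 0.05 for celastrol against tMCAO (2.25% of all genes higher), with a log2 fold change of 0.35 ± 0.13 (adjusted p = 0.976, edgeR). Nalcn, the sodium leak pore, had 159.9, 169 and 167 CPM in sham, 103, 128 and 129 in tMCAO and 88.0, 152 and 155 with celastrol, and all tMCAO libraries lay below sham (log2 fold change -0.46 ± 0.20, adjusted p = 0.333, edgeR). The calcium pump Atp2b2 had 610.5, 703 and 889 CPM in sham, 626, 390.2 and 364 in tMCAO and 535, 670.4 and 369 with celastrol, with tMCAO replicate 1 in the sham range (log2 fold change -0.67 ± 0.27, adjusted p = 0.312, edgeR). For celastrol against tMCAO, 13 of the 43 partners were negative, with a median of 0.11, beside 50.7% of all genes and a median of -0.0040.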

How the data were processed

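Per the labels' protocols, total RNA from the hemisphere was depleted of ribosomal RNA and sequenced as paired reads. The submitters' processing notes name the build mm10 and, with no order or role, StringTie 1.3.4d, HISAT2 2.0.4, cutadapt 1.9, DESeq2 and edgeR. The authors deposited whole-number estimated counts and FPKM values per gene. The sources used here give neither the settings nor whether counting used strand. An FPKM written for a count of 0 was set to 0.

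EdgeR 4.0.16 in R 4.3.3 was fitted to the counts of all 9 libraries with TMM scaling and 1 mean per group (glmQLFit and glmQLFTest, two-sided). A gene was tested where 3 or more libraries reached 0.5 FPKM. P-values were adjusted by Benjamini-Hochberg across the 16982 genes so tested, and the threshold was 0.05. CPM values use TMM library sizes. The SE, approximate, comes from the ratio of the fold change to the root of edgeR's F statistic. Shares are FPKM within a family. The scripts were tested on simulated data. The alternatives tried were DESeq2 1.42.0, limma 3.58.1 on voom weights or on log2(FPKM + pseudocount), and other size factors and filters. Further ones were the other form of the quasi-likelihood fit, only the groups compared, the replicate block, pan-neuronal scaling and each library left out. For pan-neuronal scaling, edgeR library sizes were set in proportion to the summed counts of the 12 pan-neuronal markers, without TMM factors.

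The genes, gene lists and tests were chosen with earlier results of these data known. Of the tested genes, 2 enter the counts, sums and medians but are not reported singly here. Values per library and a fold change are given where the unadjusted p was under 0.05, where groups did not overlap, and for the most abundant gene of 7 families. A few more are given for partners and for genes whose libraries spread widely, chosen after their values were seen.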

Additional observations from a re-analysis of the deposited data

How the results depend on the processing

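Over 21 alternatives, the count of channel genes past the threshold stayed at 0 in every comparison under all but DESeq2. DESeq2 gave 2 for tMCAO against sham and 2 for both occluded groups against sham. The replicate block, which the numbers did not support as pairs (correlations of same-numbered libraries from -0.156 to 0.198), also gave 0. It called 51, 0, 22 and 64 of all genes for tMCAO against sham, celastrol against tMCAO, celastrol against sham and both occluded groups. Of 976 alternative values of 47 fold changes, 940 kept their direction and side of the threshold, 4 passed it under DESeq2 and 32 changed sign. The cause of the sign changes was not tested. Under pan-neuronal scaling, tMCAO against sham gave 0.24 for Cacna1c and 0.094 for Cacna1b, and celastrol against tMCAO gave -0.015 for Cacna2d3. Celastrol against sham gave 0.025 for Cacna1i, 0.12 for Cacng7 and 0.072 for Scn8a, and both occluded groups gave 0.029 for Cacna1b and 0.053 for Cacng7. Limma on FPKM with pseudocounts of 0.5, 0.1 and 1 gave 0.061, 0.068 and 0.055 for Cacna1c after tMCAO, and 0.0077, 0.0078 and 0.0076 for Cacng7 with celastrol against sham. Cacna1b in celastrol against tMCAO was 0.0087 without a filter. With 1 library left out, values ran from -0.13 to 0.11 for Cacna1c after tMCAO. Against tMCAO with celastrol they ran from -0.19 to 0.14 for Cacna1b, -0.022 to 0.50 for Cacnb3 and -0.084 to 0.40 for Cacna2d3. For celastrol against sham the ranges were -0.36 to 0.013 for Cacna1i, -0.14 to 0.016 for Cacng7 and -0.27 to 0.033 for Scn8a. For both occluded groups they were -0.063 to 0.17 for Cacna1c. A fit with only the groups compared could not be made for both occluded groups, which use all libraries. Leaving out 1 library moved 29 of the 47 fold changes by over 1.5 times and left 18 within that. The 9 untested genes were left out by their FPKM, which depends on length as well as on depth.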
